A study of Schizosaccharomyces pombe with 6 samples.

Results

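Fission yeast, *Schizosaccharomyces pombe*, answers osmotic, oxidative and heat stress through a mitogen-activated protein (MAP) kinase cascade that ends in the kinase Sty1 and the transcription factor Atf1. The transcripts of 8 genes of this pathway were followed here in wild-type cells and in cells without the inositol pyrophosphatase Siw14. They are *wis1* (SPBC409.07c), *sty1* (SPAC24B11.06c), *atf1* (SPBC29B5.01), *pyp2* (SPAC19D5.01), *gpd1* (SPBC215.05), *tps1* (SPAC328.03), *ntp1* (SPBC660.07) and *hsp9* (SPAP8A3.04c). The genes were picked by systematic name from the 6988 loci of the count table, and all 8 passed the filter on low counts, which kept 5774 loci. Poly(A)+ RNA came from 3 cultures of the h- parental strain, called wild type (WT), and 3 cultures of an h- strain in which *siw14* is replaced by the HygMX marker (*siw14*∆). Both strains grew in YES, a rich medium, at 30 °C and were harvested in logarithmic phase without an applied stress. The values therefore describe the basal level of the pathway, and each genotype is represented by a single strain.

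Within the cascade, the MAP kinase kinase Wis1 phosphorylates and thereby activates Sty1, the fission yeast relative of mammalian p38. Active Sty1 acts on Atf1, a bZIP protein that binds ATF/CRE sites of DNA together with its partner Pcr1. Pyp2 is a tyrosine phosphatase that inactivates Sty1, and its gene is itself a target of the pathway. The other targets counteract stress directly: Gpd1, a glycerol-3-phosphate dehydrogenase, makes the precursor of the osmolyte glycerol, Tps1 synthesizes trehalose-6-phosphate, and Ntp1 is the neutral trehalase that breaks trehalose down. Hsp9 is a small heat shock protein related to Hsp12 of budding yeast.

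The ATF/CRE letters TGACGT, searched on both strands, occur within the 300 bases before the annotated gene start of *atf1*, *gpd1* and *ntp1*. These sites are shown because they are the DNA letters by which Atf1 is known to recognize its targets. In the RefSeq annotation and genome of build ASM294v3, 308 of 5106 protein-coding genes of the count table (6.03%) hold the letters in this window, against 3 of the 8 genes followed here. The stretches below read 5′ to 3′ in the direction of the gene, with the motif in capitals (TGACGT, its reverse complement ACGTCA, or both overlapping as TGACGTCA). Positions are those of the whole printed stretch, with 11 flanking bases on each side of the motif. The palindrome TGACGTCA begins 52 bases before the start of *atf1*, in the stretch chrII:1546154-1546183, plus strand, and 0.313% of the windows hold it. The sites of *gpd1* begin 123 and 74 bases before its start, in the stretches chrII:4035432-4035459 and chrII:4035481-4035508. That of *ntp1* begins 69 bases before its start, in the stretch chrII:206501-206528. These genes and the printed stretches are on the plus strand. At the second *gpd1* site and the *ntp1* site, TGACGT itself is on the minus strand, so that ACGTCA is printed.
atf1: aagtgatgcaaTGACGTCAtctgtttgaaa
gpd1, first site: tgtcaggcatgTGACGTttggtatcacc
gpd1, second site: gtagtgtttttACGTCAtttggtacggc
ntp1: tcaggtagactACGTCAttgagtaacga
A match describes letters only, and no match was found in the same window for *wis1*, *sty1*, *pyp2*, *tps1* or *hsp9*.

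Counts in genes summed to 12875286 to 14583056 per library. The *siw14* RNA had 2014 to 2414 counts in the WT and 12 to 14 in the *siw14*∆ libraries, so that every library matched its label. Normalized counts are counts brought to a common library size after TMM scaling. WT replicate 2 stood apart from the other WT libraries at 5 of the 8 genes, as given gene by gene below. Markers of the h- (M) mating type were present but low, and among the WT libraries each of the 4 listed was lowest in replicate 2. The M-factor gene *mfm2* had 291, 11.3 and 589 normalized counts in WT replicates 1, 2 and 3 and 450, 189 and 222 in *siw14*∆. The receptor gene *mam2* had 118, 46.3 and 201 in WT and 107, 73.8 and 79.9 in *siw14*∆. Of *mfm1*, *mfm2*, *mfm3* and *mam2*, 0 passed the edgeR test between genotypes, also at an unadjusted p below 0.05. The P-type genes *map2* and *map3* were detected in every library as well, with *map3* lying almost wholly opposite another gene. Of 3 genes of meiosis and sporulation, *spo5* was removed by the filter, *isp3* did not pass (−0.34, edgeR adjusted p = 0.122) and *rec12* rose by 1.28 on the log2 scale, from 9.87, 11.3 and 28.2 to 27.6, 46.5 and 46.6 normalized counts (edgeR adjusted p = 0.0478). The whole of *rec12* lies opposite a noncoding locus. The part of these differences between cultures in the results below was not tested.

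Of the 8 transcripts, *wis1* and *hsp9* were lower in *siw14*∆ cells by edgeR's quasi-likelihood test, and none was higher. Over all loci tested, 21.7% passed in either direction and 4.99% were lower, at an adjusted p (Benjamini-Hochberg) of at most 0.05. At an unadjusted p below 0.05, 6 of the 8 and 16.2% of all loci were lower, and 0 of the 8 were higher. The median log2 fold change of *siw14*∆ over WT was −0.47 for the 8 genes and 0.01 for all loci. The 8 genes were chosen with earlier results of these data known, so these counts and medians are description only. By the criteria of the study, which also ask for a 2-fold change and a mean normalized count of 100 in the strain with the higher level, *hsp9* alone remained, beside 0.208% of all loci. No WT library overlapped with the *siw14*∆ range at *wis1* and *sty1*, 2 of the 8 genes, and the same was true of 46.9% of all loci. Depletion of these RNAs from all cells cannot be told apart in bulk RNA from their loss in a share of the cells.

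**Figure D1:**
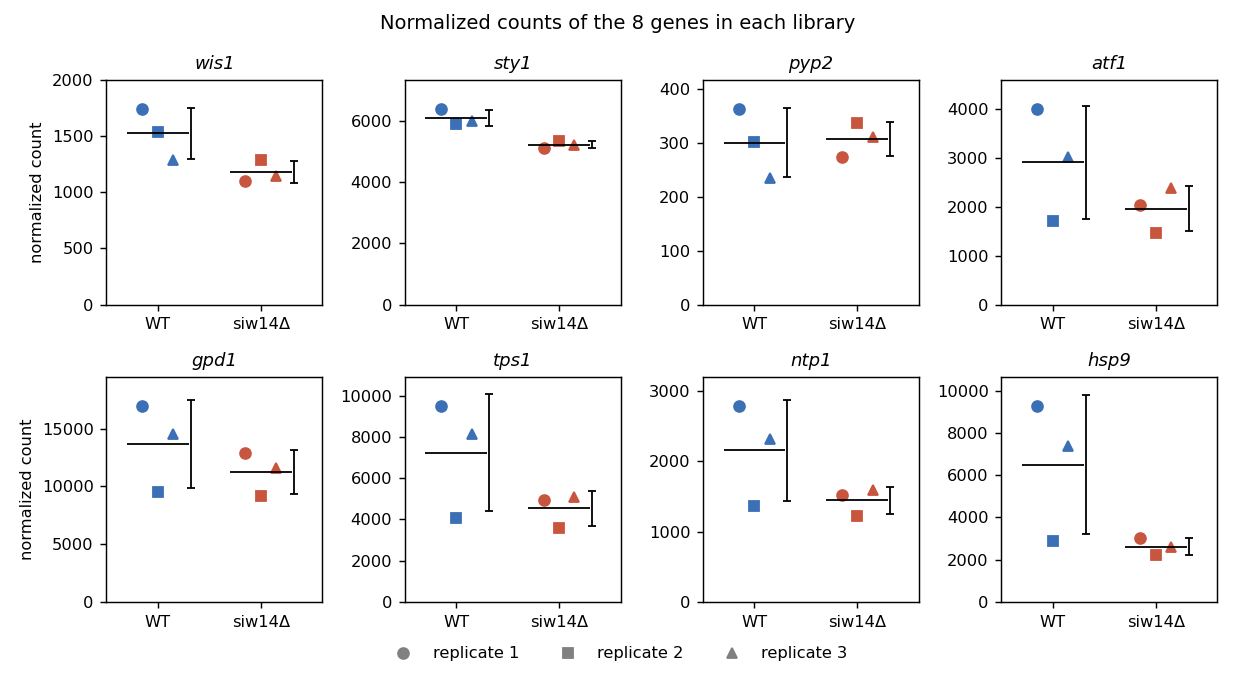
Normalized counts (y axis, from 0) of the 8 genes in the 3 WT (blue) and 3 *siw14*∆ (red) libraries; each point is a library, its shape gives the replicate number, the bar is the mean and the whisker the SD (n = 3). WT replicate 2 lies among or near the *siw14*∆ libraries at *atf1*, *gpd1*, *tps1*, *ntp1* and *hsp9*, but not at *wis1* or *sty1*. It also lies among them at *pyp2*, where all *siw14*∆ libraries lie inside the WT range.

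Of the kinase transcripts, *wis1* was slightly lower in *siw14*∆ cells and *sty1* missed the threshold. The *wis1* gene is a single exon on the minus strand of chromosome II, from 1143731 to 1146603 (ASM294v3, as for all positions here). Its RNA had 1740, 1538 and 1291 normalized counts in WT replicates 1, 2 and 3, against 1101, 1288 and 1148 in the *siw14*∆ libraries. The lowest WT library thus lay only just above the highest *siw14*∆ library. Its mean was 1523 ± 225 in WT and 1179 ± 97.2 in *siw14*∆ (SD, n = 3 each), a 1.29-fold lower level in the mutant, or −0.37 on the log2 scale (95% limits −0.62 and −0.11, edgeR adjusted p = 0.0453). DESeq2 made this call too (−0.40, adjusted p = 0.0156). So did edgeR with DESeq2's size factors (−0.40, adjusted p = 0.0371) and with a loess trend against exon GC content removed (−0.28, adjusted p = 0.0445). With other count filters or the replicate number as a block, edgeR adjusted p was 0.0378 to 0.0493. The call was also kept without WT replicate 3 (−0.44, edgeR adjusted p = 0.0406). It was lost without any other library, namely WT replicate 1 (−0.24, adjusted p = 0.116) or 2 (−0.37, adjusted p = 0.0503) and *siw14*∆ replicate 1 (−0.32, adjusted p = 0.139), 2 (−0.43, adjusted p = 0.101) or 3 (−0.36, adjusted p = 0.131). It was also lost when libraries were scaled by their totals in place of TMM factors (−0.19, edgeR adjusted p = 0.194), a setting that moved the median of all loci to 0.18. The same was true with limma-voom (−0.36, adjusted p = 0.0505) and after removal of a loess trend against abundance (−0.32, edgeR adjusted p = 0.102).

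The MAP kinase gene *sty1* is a single exon on the minus strand of chromosome I, from 206476 to 208136. Its RNA had 6388, 5893 and 5983 normalized counts in the WT replicates, against 5115, 5351 and 5223 in the *siw14*∆ libraries. All WT libraries lay above all *siw14*∆ libraries, and the highest was 1.25 times the lowest. Among the loci kept, 91.7% spread at least as widely between WT replicates. The means were 6088 ± 264 and 5230 ± 118 (SD, n = 3 each). At −0.22 on the log2 scale (95% limits −0.41 and −0.03, edgeR adjusted p = 0.0842) the difference did not pass, and its limits exclude a 2-fold change either way. DESeq2 called it (−0.25, adjusted p = 0.0344), as did edgeR with a loess trend against exon GC content removed (−0.30, adjusted p = 0.0201). When libraries were scaled by their totals alone, *sty1* was at −0.04, and after removal of a loess trend against abundance it was at 0.00080 (edgeR adjusted p = 0.997). In the ASM294v3 annotation 1362 of the 1661 bases of *sty1* lie opposite the noncoding locus SPNCRNA.622, which had 98 to 212 counts per library. Its part in the count of *sty1* was not tested.

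The phosphatase gene *pyp2*, both a target and an inhibitor of the kinase, gave no difference that passed. It is a single exon on the plus strand of chromosome I, from 5202656 to 5205202. Its RNA was the least abundant of the 8 and had 362, 302 and 235 normalized counts in the WT replicates, against 273, 337 and 311 in the *siw14*∆ libraries. All 3 *siw14*∆ values lay inside the WT range. Between means of 300 ± 63.7 and 307 ± 32.03 (SD, n = 3 each) the log2 value was 0.04 (95% limits −0.34 and 0.41, edgeR adjusted p = 0.885). Its sign was not stable, being −0.078 without WT replicate 3, −0.032 without *siw14*∆ replicate 2 and −0.33 with the abundance trend out.

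The *atf1* RNA varied 2.35-fold between WT cultures. The gene has 2 exons on the plus strand of chromosome II, from 1546217 to 1549862. Its RNA had 3991, 1699 and 3014 normalized counts in WT replicates 1, 2 and 3, against 2034, 1462 and 2379 in the *siw14*∆ libraries. WT replicate 2 lay within the range of the *siw14*∆ libraries, while the other WT libraries lay above all of them. The means were 2901 ± 1150 and 1958 ± 463 (SD, n = 3 each). At −0.57 on the log2 scale (95% limits −1.13 and −0.00070) the difference did not pass (edgeR adjusted p = 0.121). Without WT replicate 2 it was −0.84 (edgeR adjusted p = 0.00867), and without WT replicate 1 it was −0.25 (adjusted p = 0.525).

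The glycerol gene *gpd1*, a single exon on the plus strand of chromosome II from 4035566 to 4037342, had the highest counts of the 8. There were 16931, 9539 and 14522 normalized counts in the WT replicates, against 12892, 9172 and 11591 in the *siw14*∆ libraries. Replicate 2 of WT again lay inside the *siw14*∆ range. The mean of 13664 ± 3770 in WT and that of 11218 ± 1888 in the mutant (SD, n = 3 each) did not differ past the threshold, at −0.28 on the log2 scale (95% limits −0.71 and 0.14, edgeR adjusted p = 0.282). It was −0.49 (edgeR adjusted p = 0.0291) without WT replicate 2, −0.08 (adjusted p = 0.804) without WT replicate 1, and −0.02 (adjusted p = 0.960) with the abundance trend out.

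Both trehalose genes were patterned like *atf1*. The synthase gene *tps1* lies on chromosome I from 3479149 to 3481305 and *ntp1* on chromosome II from 206581 to 209641, each a single exon on the plus strand. The *tps1* RNA had 9495, 4058 and 8161 normalized counts in the WT replicates, against 4931, 3574 and 5093 in the *siw14*∆ libraries. The difference, −0.68 on the log2 scale (95% limits −1.23 and −0.12), did not pass (edgeR adjusted p = 0.0725). The trehalase gene *ntp1*, with the opposite role in trehalose turnover, had 2780, 1369 and 2312 in WT and 1516, 1223 and 1593 in *siw14*∆. Nor did this difference of −0.58 pass (95% limits −1.03 and −0.12, edgeR adjusted p = 0.0652). At both genes WT replicates 1 and 3 were above every *siw14*∆ library and WT replicate 2 was among them. Without WT replicate 2 the changes were −0.96 for *tps1* (edgeR adjusted p = 0.00386) and −0.82 for *ntp1* (adjusted p = 0.00413). Without WT replicate 1 they were −0.41 (adjusted p = 0.309) and −0.33 (adjusted p = 0.293). DESeq2 called *ntp1* with all libraries (−0.61, adjusted p = 0.0120).

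The small heat shock gene *hsp9* showed the widest differences of the 8, both between genotypes and between WT cultures. It is a single exon of 720 bases on the minus strand of chromosome I, from 5319957 to 5320676, of which 207 bases are coding. Its RNA had 9265, 2874 and 7361 normalized counts in WT replicates 1, 2 and 3, against 3036, 2205 and 2617 in the *siw14*∆ libraries. The WT libraries differed 3.22-fold and the *siw14*∆ libraries 1.38-fold, and WT replicate 2 was below *siw14*∆ replicate 1. On average the RNA was 2.48-fold lower in *siw14*∆, with means of 6500 ± 3281 and 2620 ± 416 (SD, n = 3 each), which is −1.31 on the log2 scale (95% limits −2.01 and −0.61, edgeR adjusted p = 0.0258). DESeq2 (−1.34, adjusted p = 0.0271) and limma-voom (−1.16, adjusted p = 0.0339) called it too. The call was kept without WT replicate 2, where the change was −1.67 (edgeR adjusted p = 2.39e-04). It was lost without WT replicate 1 (−0.95, adjusted p = 0.0801) or 3 (−1.17, adjusted p = 0.0613), without *siw14*∆ replicate 1 (−1.43, adjusted p = 0.0529), 2 (−1.20, adjusted p = 0.101) or 3 (−1.31, adjusted p = 0.0879), and with the abundance trend out (−1.09, adjusted p = 0.0755). Its sign was negative in all 16 settings run.

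**Figure D2:**
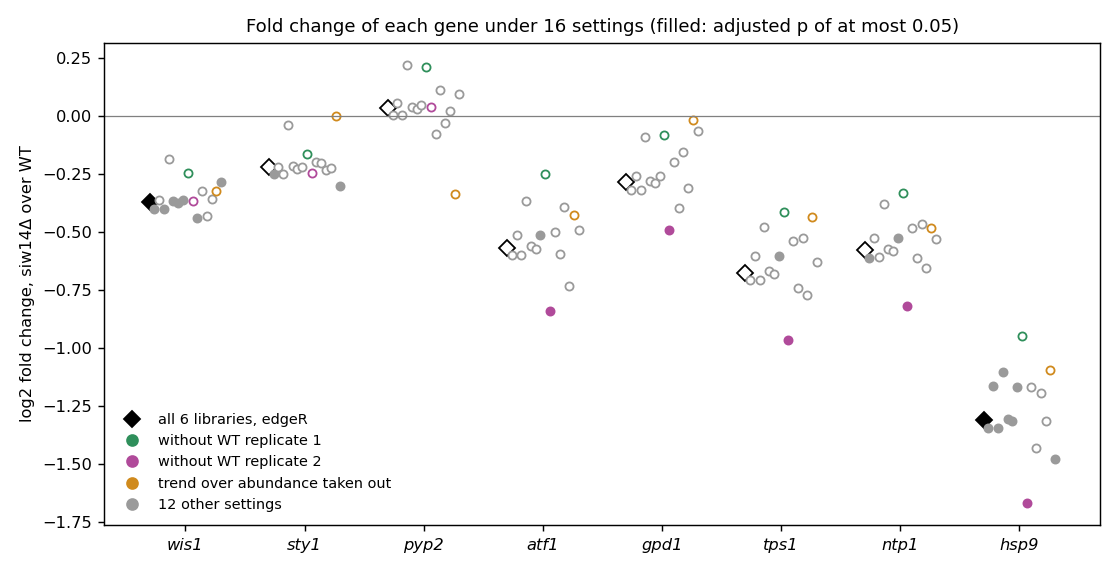
Log2 fold change of *siw14*∆ over WT (y axis) for each of the 8 genes under 16 settings; diamonds give the edgeR fit to all 6 libraries, circles the alternatives, and filled symbols an adjusted p of at most 0.05. Leaving out WT replicate 2 moved *atf1*, *gpd1*, *tps1*, *ntp1* and *hsp9* down, to values from −0.49 to −1.67, and leaving out WT replicate 1 moved them up, to values from −0.08 to −0.95.

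WT replicate 2 set 5 of these transcripts apart. In that culture, *hsp9* was 2.87-fold lower than the geometric mean of WT replicates 1 and 3, *tps1* 2.17-fold, *atf1* 2.04-fold, *ntp1* 1.85-fold and *gpd1* 1.64-fold. Only 0.606% of the 5774 loci were reduced at least as much as *hsp9* in that library, 1.59% as much as *tps1*, 1.82% as much as *atf1*, 2.29% as much as *ntp1* and 3.29% as much as *gpd1*. By contrast, *wis1*, *sty1* and *pyp2* differed there by 0.04, −0.07 and 0.05 on the log2 scale, and the median over all loci was 0.02. The TMM factor of WT replicate 2 was 0.976, beside 0.864 and 0.984 for WT replicates 1 and 3. Chi-square per degree of freedom was 38.1 between WT replicates 1 and 2, 26.3 between 1 and 3 and 25.9 between 2 and 3. Which WT library is typical of the strain was not tested. With WT replicate 2 left out, *atf1*, *gpd1*, *tps1*, *ntp1* and *hsp9* were lower in *siw14*∆ and *wis1* narrowly missed. Thus 5 of the 8 were called, beside 12.3% of all loci in that direction. These 5 genes were singled out as low in the library left out, so its removal raises their WT mean by construction. Their calls in that fit are therefore description only. With WT replicate 1 left out instead, 0 of the 8 passed by edgeR, but calls of lower loci also dropped over the whole table, to 0.825%. There, 3 of the 8 and 9.49% of all loci were lower at an unadjusted p below 0.05. Without *siw14*∆ replicate 1, 2 or 3, 0 of the 8 passed by edgeR and 0.0172% of all loci were lower, that is 1 locus each time, so that these counts say nothing particular to the 8 genes. At an unadjusted p below 0.05, 4, 2 and 5 of the 8 were then lower, beside 8.67%, 10.4% and 10% of all loci. Within *siw14*∆, replicate 2 was also the lowest library at *atf1*, *gpd1*, *tps1*, *ntp1* and *hsp9*, but the spread was narrower, 1.30-fold to 1.63-fold. The median spread over all loci was narrower too, 1.16-fold in *siw14*∆ and 1.27-fold in WT. In *siw14*∆, 6.06% (*atf1*) to 20.1% (*ntp1*) of loci spread at least as widely as these genes. In WT, 1.7% (*hsp9*) to 11.9% (*gpd1*) did. The reference mattered for the size of the difference. Mean *siw14*∆ levels were below WT replicates 1 and 3 by 0.50 for *gpd1* to 1.67 for *hsp9* on the log2 scale. Against WT replicate 2, they differed by −0.15 for *hsp9* and by 0.07 to 0.22 for *ntp1*, *tps1*, *atf1* and *gpd1*.

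**Figure D3:**
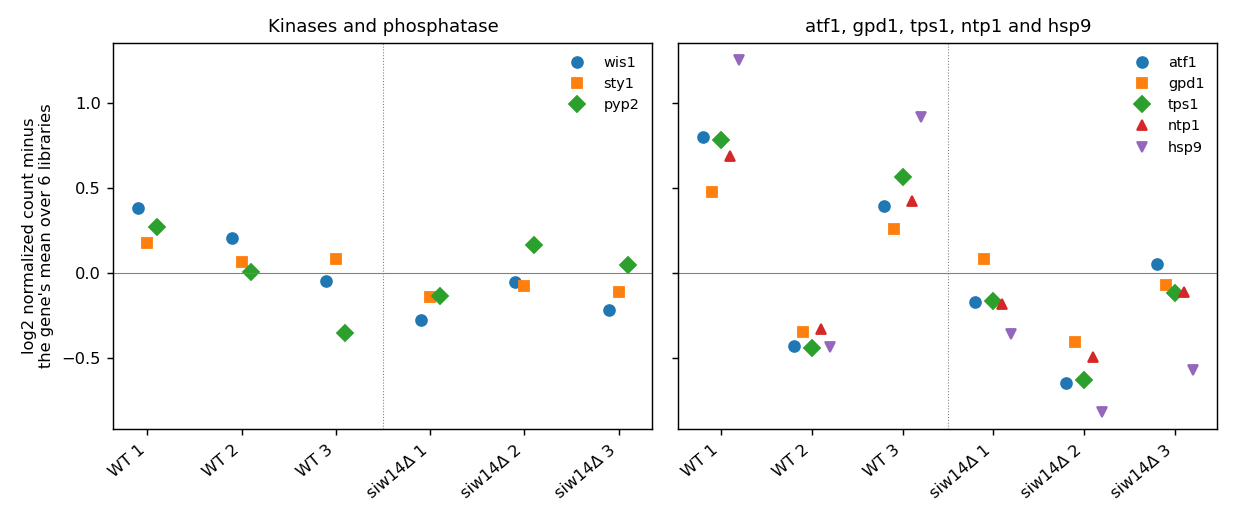
Log2 normalized count of each gene minus its own mean over the 6 libraries (y axis), by library (x axis), for *wis1*, *sty1* and *pyp2* (left) and for *atf1*, *gpd1*, *tps1*, *ntp1* and *hsp9* (right). The 5 genes on the right share highs in WT replicates 1 and 3 and a low in WT replicate 2, whereas *wis1*, *sty1* and *pyp2* each span at most 0.66.

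Ratios of counts within a library need no scaling between libraries, and they show which transcripts varied together. The *tps1* to *ntp1* ratio was 3.42, 2.96 and 3.53 in the WT replicates and 3.25, 2.92 and 3.20 in the *siw14*∆ replicates. It thus varied 1.21-fold over libraries in which *tps1* alone varied 2.66-fold. The *tps1* to *atf1* ratio ranged from 2.14 to 2.71 and the *ntp1* to *atf1* ratio from 0.670 to 0.837. The *hsp9* RNA did not keep this proportion. Its ratio to *gpd1* was 0.547, 0.301 and 0.507 in WT and 0.236, 0.240 and 0.226 in *siw14*∆. Every WT library, replicate 2 included, lay above every *siw14*∆ library in this ratio. The same held for *hsp9* to *atf1* (1.69 to 2.44 against 1.10 to 1.51) and *hsp9* to *tps1* (0.708 to 0.976 against 0.514 to 0.617). All 3 ratios share *hsp9*, so they are not separate observations, and the groups did not overlap at 46.9% of all single loci either. With 3 libraries against 3, a two-sided exact permutation test cannot go below 0.1, which all 3 of these ratios reached, and over the 8 ratios computed their adjusted p was 0.267. In the kinase pair, *wis1* to *sty1* ranged from 0.215 to 0.272.

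Likeness of profiles was measured as the root mean square difference of log2 values over the 6 libraries, each gene centered on its mean. Among the members the closest pairs were *atf1* and *tps1* (0.10), *tps1* and *ntp1* (0.10) and *atf1* and *ntp1* (0.11), and the farthest was *pyp2* and *hsp9* (0.84). Outside them, the protein-coding transcripts nearest to *hsp9* were *SPAC15E1.02c* (0.19), an uncharacterized protein, *mei2* (0.20), an RNA-binding regulator of meiosis, *SPAC637.03* (0.22), *SPACUNK4.17* (0.23), annotated as an NAD-binding dehydrogenase, and *SPBC19C7.04c* (0.23). Those nearest to *atf1* were *tps3* (0.10), annotated as a trehalose-phosphate synthase, *mmf2* (0.13), *gut2* (0.13), which encodes a mitochondrial glycerol-3-phosphate dehydrogenase, *SPCC794.04c* (0.13), annotated as a transporter, and *SPBC16A3.02c* (0.14). These values describe the 6 libraries and carry no test. Noncoding loci lie opposite *SPACUNK4.17* and *gut2* in the annotation, so their counts are less certain.

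Levels of different transcripts were compared per length, as RPKM with exon lengths of ASM294v3. In *siw14*∆ the order from high to low was *gpd1* (376 to 528 RPKM over the replicates), *hsp9* (223 to 307), *sty1* (224 to 235), *tps1* (121 to 172), *atf1* (38.1 to 62.1), *ntp1* (29.1 to 37.9), *wis1* (27.9 to 32.6) and *pyp2* (7.81 to 9.64). The ranges of *hsp9* and *sty1* and those of *ntp1* and *wis1* overlapped, so these neighbors are not ordered beyond their spread. In WT, *hsp9* had the highest mean, with 291 to 937 RPKM, above *gpd1* with 391 to 694, but the ranges overlapped. The *sty1* RNA was thus several times more abundant than that of its activator *wis1* in both genotypes, at 258 to 280 RPKM against 32.7 to 44.1 in WT.

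Beyond the 8 genes, 35 others were listed for the pathway and 34 were kept by the filter, all but the transcription factor gene *atf21*. Of these 34, 8 were lower in *siw14*∆, 0 were higher and 26 did not pass, beside the 4.99% lower over all loci. At an unadjusted p below 0.05, 14 of the 34 were lower and 0 higher, beside the 16.2% lower over all loci. Their median log2 fold change was −0.25 and 32 were negative, beside a median of 0.01 for all loci. Loci of like abundance were not compared. With a loess trend against abundance removed, 0 of the 34 and 1 of all loci were lower by edgeR at the adjusted threshold. The lists were chosen with earlier results of these data known, so these counts and medians are description only.

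Upstream of Wis1, none of the 7 genes for sensor kinases, the phosphorelay and MAP kinase kinase kinases passed the test by edgeR, with log2 fold changes from −0.30 to 0.16, and 2 were lower at an unadjusted p. The nearest were *mcs4*, the response regulator (−0.30, edgeR adjusted p = 0.0641), and *mpr1*, the phosphotransfer protein (−0.26, adjusted p = 0.106). Among the phosphatases, *pyp1*, which like Pyp2 dephosphorylates Sty1, fell by 0.43 on the log2 scale, from 1455 ± 270 to 1083 ± 61.2 normalized counts (SD, n = 3 each, edgeR adjusted p = 0.0388), while the phosphatase 2C gene *ptc3* did not pass (−0.29, adjusted p = 0.117), nor did the other 2 of its kind. Of the transcription factors, *hsr1* (−0.44, standard error 0.09, edgeR adjusted p = 0.0235) and *prr1*, a response regulator (−0.33, adjusted p = 0.0440), fell. The Atf1 partner gene *pcr1* was at −0.12 (adjusted p = 0.372). Of the genes for Sty1-linked kinases and RNA-binding proteins, *cip1* fell (−0.29, adjusted p = 0.0386) and the kinase gene *srk1* did not pass (−0.22, adjusted p = 0.176).

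In glycerol metabolism, 3 of the 5 listed genes fell and none rose, beside 4.99% lower over all loci. The second glycerol-3-phosphate dehydrogenase gene, *gpd2*, was at −0.45 (edgeR adjusted p = 0.0375), and the dihydroxyacetone kinase genes *dak2* and *dak1* were at −0.77 (adjusted p = 0.0417) and −0.49 (adjusted p = 0.0440). None of these 3 was called with the abundance trend out. At *dak2*, WT replicate 2 (422 normalized counts) lay below *siw14*∆ replicate 2 (455). In the annotation *gpd2*, *dak1*, *dak2* and *hsr1* lie in part opposite another locus, whose part in their counts was not tested. In trehalose metabolism none of the 5 passed, *tps1* and *ntp1* included, and 3 were lower at an unadjusted p. The phosphatase gene *tpp1* was at −0.24 (adjusted p = 0.120) and *tps3* at −0.47 (adjusted p = 0.147). Of 14 listed stress-response targets, *hsp9* and *ste11*, a regulator of mating, fell. The *ste11* RNA had 1228, 584 and 1040 normalized counts in WT and 518, 578 and 527 in *siw14*∆ (log2 fold change −0.81, standard error 0.22, edgeR adjusted p = 0.0315). The catalase gene *ctt1* had 4473, 1495 and 3725 in WT and 2034, 1406 and 2058 in *siw14*∆ and did not pass (−0.82, adjusted p = 0.0737). The 8 calls among these other genes became 14 without WT replicate 2, 1 without WT replicate 1 or 3, and 0 without any one *siw14*∆ library. Over all loci the share called lower moved the same way, to 12.3% without WT replicate 2, 0.825% and 0.759% without WT replicates 1 and 3, and 0.0172% without a *siw14*∆ library. Without *siw14*∆ replicate 1, 2 or 3, an unadjusted p below 0.05 by edgeR, in either direction, was seen at 9, 9 and 12 of these other genes. It was seen at 1825 of 5813, 1734 of 5818 and 1756 of 5827 loci in the same fits.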

How the data were processed

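Libraries were made with the TruSeq stranded mRNA kit and sequenced as read pairs. The authors aligned them with HISAT2 2.1.0 (genome ASM294v2) and obtained counts per exon annotation from HTSeq 0.10.0. The deposited table holds raw counts for 6988 loci in 6 libraries. Whether the counting used strand is not stated. Unnamed lines, filled only in the *siw14*∆ columns (31.6% to 35.8% of their counts), were left out. The authors' own DESeq2 comparison (means, fold changes, p-values) was not used.

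Low loci were removed with filterByExpr, then libraries were scaled by TMM and genotypes compared with edgeR 4.0.16 (quasi-likelihood, R 4.3.3), with p-values adjusted over the 5774 loci kept. The code was tested on simulated data. Alternatives were DESeq2 1.42.0, limma-voom (limma 3.58.1), other scalings and filters, loess trends (span 0.3) over abundance or exon GC content taken out as offsets, the replicate number as a block, and each library left out. The methods call the replicates biological. Every pair differed beyond sampling noise (chi-square per degree of freedom 8.83 to 38.1). Symbols, lengths and sequences come from RefSeq build ASM294v3, which differs from the authors' build (6836 IDs matched). The members and gene lists were chosen with earlier results of these data known. Named genes are the members, of each list the others with the smallest p (at most 2), further called genes, *pcr1* for its role, marker genes, and the 5 nearest profiles of the 2 most variable members.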

Additional observations from a re-analysis of the deposited data

How the results depend on the processing

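Of the 8 transcripts, the number lower in *siw14*∆ was 2 in the fit reported. It was 4 by DESeq2, 1 by limma-voom, 1 with library totals only, 3 with the GC trend out (*sty1* being added), 0 with the abundance trend out (3 at an unadjusted p below 0.05), 0 at an adjusted p of 0.01, 1 by the study criteria, and 0 to 5 with a library left out. No setting called any of the 8 higher. With the replicate block it was 5, *atf1*, *tps1* and *ntp1* being added. Deviations of same-numbered libraries from their group means correlated with r = −0.26, 0.16 and −0.16. These values cannot settle whether the numbers pair the cultures, and the labels do not say. Of the 34 other pathway genes, 8 were lower. The number was 1 with library totals only (and 1 higher), 4 with the replicate block and 0 with the abundance trend out (12 unadjusted, in either direction). It was 14 with the GC trend out, and 0 to 14 with a library left out. Over all loci, 964 were higher and 288 lower. Lower loci numbered 727 by DESeq2, 495 with DESeq2's size factors, 31 with library totals only, 156 with the replicate block, 927 with the GC trend out and 1 to 717 with a library left out. Higher loci numbered 0 to 1204 with a library left out. With the abundance trend out, 0 were higher and 1 lower, and 1592 in either direction had an unadjusted p below 0.05 by edgeR. Library totals moved the median of all loci from 0.01 to 0.18. The sign reversed for *sty1* with the abundance trend out (0.00080) and for *pyp2* without WT replicate 3 (−0.078) or *siw14*∆ replicate 2 (−0.032), within −0.078 to 0.21 over the left-out libraries, and with the abundance trend out (−0.33). The *siw14* loss held in every setting. The cause of the other changes was not tested.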

Other observations

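The heat shock gene *hsp16* (SPBC3E7.02c), a small chaperone gene listed with the stress-response targets, gave no difference that passed. Its normalized counts were 954, 236 and 1085 in WT replicates 1, 2 and 3 and, for *siw14*∆, 889, 506 and 778. WT replicate 2 was thus the lowest WT library here, as at *hsp9*, while all *siw14*∆ libraries lay between WT replicate 2 and the other WT libraries at *hsp16*. At *hsp9* they lay near WT replicate 2, both above and below it. The log2 fold change of *hsp16* was −0.07 with a 95% interval of −0.97 to 0.84 (edgeR adjusted p = 0.916), which does not exclude a change near 2-fold lower. It was chosen for mention after its values were seen, and the difference between the genes was not tested.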
